A study of Canis lupus familiaris with 14 samples.

Results

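The 37 genes of the dog mitochondrial genome were taken from a table of 30951 genes by their chromosome, MT, in the CanFam3.1 assembly. By length and position they comprise 2 rRNA genes, 13 protein-coding genes and 22 tRNA genes. The table gives identifiers without names. Class and strand were the same as in the textbook order of a mammalian mitochondrial genome at 37 of 37 places, and each gene is called here by the name of its place in that order.

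Whole blood RNA of 14 dogs had been sequenced, 7 with lymphoma, a cancer of lymphocytes, and 7 controls that had some other disease. Labels give no breed, age, treatment or lymphoma type, and no statement that any animal was sampled more than once, so the p-values speak of differences among these libraries. In bulk blood, a change in the mix of cells and a change in RNA per cell cannot be told apart. Lymphoma libraries held 9845059 to 14831589 counts and non-lymphoma libraries 13522628 to 21610927, so depth was lower in lymphoma. Blood cell markers could not be checked, because 0 identifiers of the table matched the reference gene table.

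The mitochondrial genome is a small circle that encodes the RNAs of its own ribosome, a full set of tRNAs and subunits of the respiratory chain and the ATP synthase. It is transcribed from both strands as long precursors, from which tRNAs are cut out and so release the mRNAs and rRNAs between them. An additional short transcription unit over the rRNA genes is held to supply most rRNA. Mature mammalian red cells lack mitochondria, and platelets and white cells carry them. Here 28 genes lay on the forward strand and 9 on the reverse strand, the latter being ND6 and 8 tRNA genes.

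Nearly all mitochondrial counts came from the rRNA genes, in every library. Their share of mitochondrial counts had a lowest, median and highest value of 93.9, 97.2 and 98.8% in lymphoma, and of 96.4, 97.4 and 98.6% in non-lymphoma blood. The protein-coding genes held 1.17, 2.83 and 6.1% of mitochondrial counts in lymphoma and 1.38, 2.54 and 3.57% in non-lymphoma blood. The tRNA genes held 0.00576 to 0.0277% and 0.00944 to 0.019%. All of these ranges overlapped between the groups. Depletion of rRNA or selection by poly(A) tail, on which the rRNA share of counts rests, is not given in the labels.

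As shares of all counts, the 3 classes differed between the groups by less than the spread between libraries. The rRNA genes took 16.4, 20.7 and 25.8% of all counts in lymphoma (lowest, median, highest) and 9.58, 18.8 and 33.3% in non-lymphoma blood. The protein-coding genes took 0.246, 0.478 and 1.17% against 0.302, 0.359 and 0.544%. The tRNA genes took 0.00124, 0.00236 and 0.0053% against 0.00166, 0.00243 and 0.00402%. On the log2 scale the mean differences, lymphoma minus non-lymphoma, were 0.22 for rRNA (SE 0.23), 0.29 for protein-coding genes (SE 0.32) and 0.05 for tRNA genes (SE 0.35). With 1 library left out these fell to 0.0815 for rRNA (without non-lymphoma replicate 7) and 0.0782 for protein-coding genes (without lymphoma replicate 1). For tRNA genes the sign turned in 5 of 14 such runs, to -0.12 without lymphoma replicate 1. The rRNA difference was 0.26 relative to counts outside the mitochondrial genome and 0.35 without the 20 most abundant nuclear genes. No p is given for the class sums. Among the 9 libraries whose sample numbers have 5 digits, 2 of them lymphoma, the differences were 0.49, 0.33 and 0.22. The labels do not say whether the form of the number marks a batch, and the other form holds lymphoma libraries alone.

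**Figure D1:**
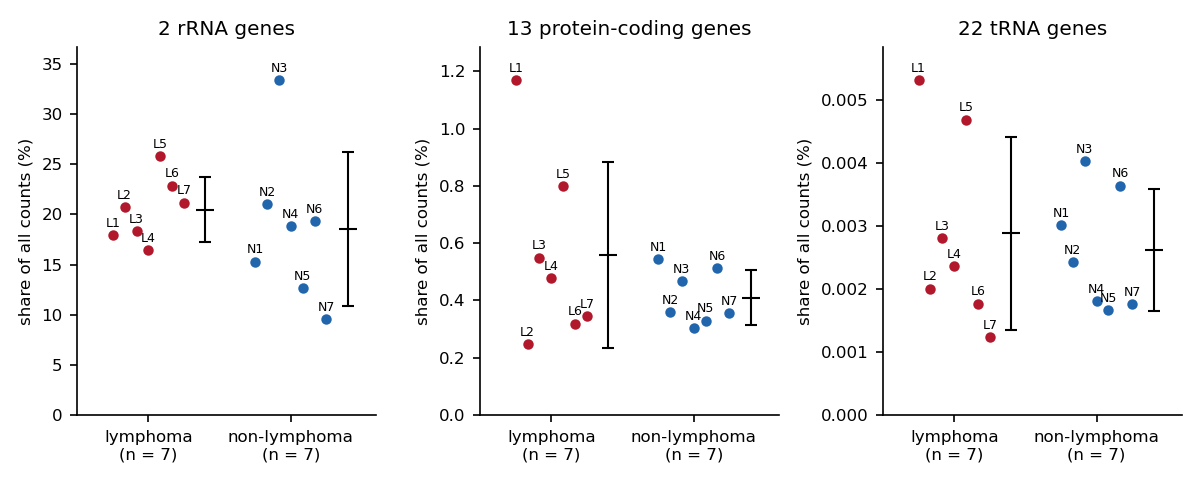
Share of all counts (%) taken by each class of mitochondrial gene in each library, with L1 to L7 for lymphoma and N1 to N7 for non-lymphoma replicates. Bars give the mean and SD of 7 libraries, and the vertical axes differ in scale. N3 stands highest for rRNA at 33.3% and L1 for protein-coding genes at 1.17%.

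The classes did not rank the libraries alike. Non-lymphoma replicate 3 had the highest rRNA share and non-lymphoma replicate 7 the lowest. Lymphoma replicate 1 had the highest protein-coding and the highest tRNA share, and lymphoma replicate 2 had the lowest protein-coding share. There were 15.4 rRNA counts per protein-coding count in lymphoma replicate 1 and 84.1 in lymphoma replicate 2, which enclosed the range of 27 to 71.5 in non-lymphoma blood. Of the 13 protein-coding genes, 11 had their highest CPM (counts per 1000000 of all counts) in lymphoma replicate 1, and 8 had their lowest in lymphoma replicate 2. The other 2 highest values, of ND2 and ND6, were in non-lymphoma replicate 3.

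The 16S rRNA gene, for the large ribosomal subunit, lies at MT positions 1091 to 2670 on the forward strand. It was the most abundant of the 12836 genes tested, by average log2 CPM. It took 14.6, 16.9 and 22.1% of all counts in lymphoma (lowest, median, highest) and 8, 14.6 and 26.3% in non-lymphoma blood. All 7 lymphoma libraries lay above the non-lymphoma median and none above non-lymphoma replicate 3. The log2 fold change, lymphoma against non-lymphoma throughout, was 0.46 (SE 0.46, edgeR adjusted p = 0.498). With 1 library left out it ranged from 0.34 (without non-lymphoma replicate 7) to 0.7 (without non-lymphoma replicate 3).

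The 12S rRNA gene, for the small subunit, lies at positions 70 to 1023 on the same strand and ranked 4 of 12836. It took 1.76, 3.29 and 4.34% of all counts in lymphoma and 1.58, 3.72 and 7.08% in non-lymphoma blood. Only 2 of 7 lymphoma libraries lay above the non-lymphoma median. Its log2 fold change was 0.0016 (SE 0.41, edgeR adjusted p = 0.998), and -0.055 with upper-quartile factors in place of TMM. Neither rRNA gene passed the test.

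The balance between the rRNA genes differed between the groups. There were 4.27, 5.52 and 8.3 counts of 16S per count of 12S in lymphoma (lowest, median, highest) and 2.81, 3.79 and 5.06 in non-lymphoma blood. Of 7 lymphoma libraries, 4 lay above every non-lymphoma library, all 7 lay above the non-lymphoma median, and 6 non-lymphoma libraries lay below every lymphoma library. The log2 ratio was 2.43 ± 0.34 (SD, n = 7) in lymphoma against 1.94 ± 0.27 (SD, n = 7) in non-lymphoma blood, a difference of 0.49 or 1.41-fold. By a two-sided exact permutation test over 3432 assignments it passed (p = 0.00758, adjusted p = 0.0227 over 3 gene ratios). Such a ratio does not depend on how libraries are scaled. The ratios to be tested were chosen with earlier results of these data known, which limits what this p can say.

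The rRNA ratio kept its sign in all runs with 1 library left out, but the call was lost without either of 2 libraries. Without non-lymphoma replicate 4 the exact permutation test gave a log2 difference of 0.47 (adjusted p = 0.0507), and without non-lymphoma replicate 5 one of 0.42 (adjusted p = 0.0524). The 14 such runs spanned 0.39 to 0.56. Within the 9 libraries with 5-digit numbers the difference was 0.4 (exact permutation p = 0.139, adjusted p = 0.139), where 36 assignments allow no p below 0.0278. Depth was lower in lymphoma, as given above, and its part in the ratio was not tested.

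**Figure D2:**
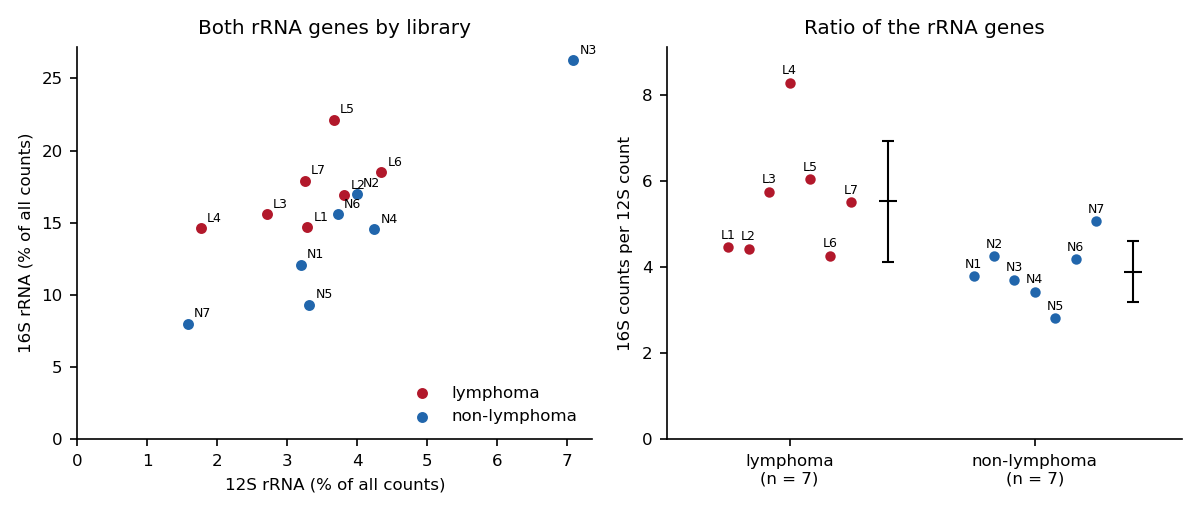
Left, the share of all counts (%) of 16S rRNA against that of 12S rRNA, 1 point per library. Right, counts of 16S per count of 12S in each library, with the mean and SD of 7 libraries per group. Lymphoma libraries range from 4.27 to 8.3 and non-lymphoma libraries from 2.81 to 5.06.

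Levels of the 13 protein-coding genes, set per kilobase of gene length, followed nearly the same order in all libraries. Spearman correlation of these levels across the 13 genes had a lowest, median and highest value of 0.82, 0.96 and 0.99 over 91 pairs of libraries. The values were 0.82 to 0.98 over the 49 pairs between groups and 0.84 to 0.99 over the 42 within groups. The genes of a pair share their libraries and depth and are not independent replicates, and no p is given. COX1 stood first in 14 of 14 libraries.

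The subunits of complex IV, cytochrome c oxidase, led the order. The enzyme passes electrons to oxygen at the end of the respiratory chain. COX1, the catalytic subunit at positions 5349 to 6893, had 1137, 1830 and 4294 CPM per kb in lymphoma (lowest, median, highest) and 1134, 1539 and 2263 in non-lymphoma blood. COX3 at positions 8644 to 9427 had 451, 1053 and 2769 against 672, 816 and 1258. COX2, which takes up electrons from cytochrome c and lies at positions 7034 to 7717, had 239, 701 and 2449 against 334, 455 and 726. Lymphoma replicate 1 held the highest value of each. Lymphoma replicate 2 held the lowest lymphoma value for COX1 and COX2 and lymphoma replicate 6 that for COX3. The groups overlapped for all 3 genes.

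The pair of ATP synthase subunits stood lower and apart from each other. ATP6, part of the proton channel, had 61.1, 213 and 617 CPM per kb in lymphoma and 164, 197 and 295 in non-lymphoma blood. ATP8, a short membrane subunit, had 2.49, 73.7 and 188 against 35.6, 56.2 and 87.6. The genes share 43 bases, and read pairs on bases shared by 2 genes went to neither, which bears on ATP8 with its 204 bases most. The lowest ATP8 value came from 5 counts in lymphoma replicate 2, where non-lymphoma libraries had 116 to 386.

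Complex I, NADH dehydrogenase, feeds electrons from NADH into the chain, and 7 of its subunits are encoded here. ND3 stood highest of them, with 45.7, 183 and 621 CPM per kb in lymphoma and 130, 145 and 325 in non-lymphoma blood. ND4L followed with 37.9, 101 and 193 against 51.2, 70.7 and 101. ND1 had 12.9, 34.2 and 89.4 against 22.1, 39.1 and 65.8. These 3 genes overlapped between the groups, with lymphoma replicate 1 highest of all libraries for each.

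The longer complex I genes stood close to ND1 or below it. ND5 had 11.5, 38.3 and 64.9 CPM per kb in lymphoma and 24.6, 33 and 63.9 in non-lymphoma blood, and ND4 had 11.4, 42.5 and 69.2 against 25.3, 33.9 and 60.2. ND2 had 4.67, 10.7 and 21.6 against 6, 13 and 35.1. Among these neighbours the order did not hold across libraries: ND1 lay above ND5 in 7 of 14 libraries, and ND5 above ND4 in 7 of 14. ND4 lay above ND2 in 14 of 14.

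ND6, the only protein-coding gene of the reverse strand, had the lowest median level, with 4.47, 7.09 and 13.5 CPM per kb in lymphoma and 5.89, 12.3 and 39.5 in non-lymphoma blood. Counting did not use strand, so reads from the opposite strand of ND6 could not be told apart from its own. CYTB, the mitochondrial subunit of complex III, which hands electrons on to cytochrome c, had 16.8, 51.5 and 120 against 37.2, 49 and 85.3. ND2 lay above ND6 in 7 of 14 libraries, and CYTB above ND1 in 12 of 14.

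**Figure D3:**
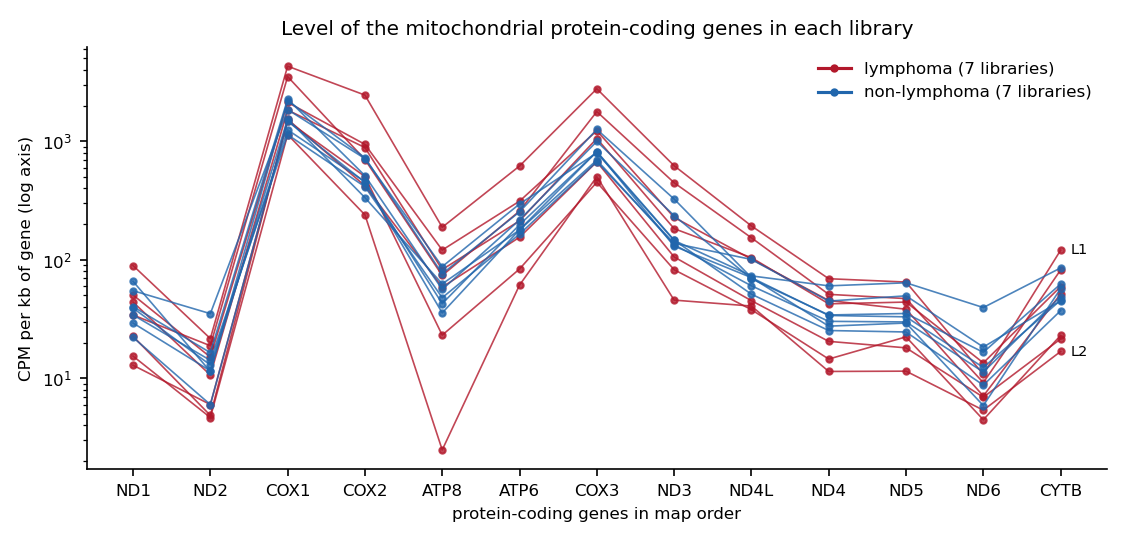
Level of each protein-coding gene in CPM per kb of gene (log axis), in map order, with 1 line per library. COX1 is highest in all 14 libraries, and L1 and L2 are marked at the right; the lowest point of ATP8, 2.49, is L2.

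By role, complex IV took most of the protein-coding counts. Its 3 genes held 89, 91.3 and 94% of them in lymphoma (lowest, median, highest) and 84.8, 88.8 and 90.1% in non-lymphoma blood. All 7 lymphoma libraries lay above the non-lymphoma median, and 4 lay above every non-lymphoma library. The 7 complex I genes held 3.53, 5.14 and 6.13% against 4.96, 5.82 and 9.5%. CYTB held 0.707, 1.07 and 1.42% against 1.18, 1.57 and 2.08%, with no lymphoma library above the non-lymphoma median. Taken singly, ND1, ND2 and ND6 of complex I likewise had no lymphoma library above it. ATP6 and ATP8 together held 1.71, 3.39 and 4.32% against 3.1, 3.93 and 4.69%. These shares sum to a whole, so a higher share of one lowers the others, and no p is given for them.

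Of the 37 genes, 18 passed the filter on low counts, namely both rRNA genes, all 13 protein-coding genes and 3 of 22 tRNA genes. Of these 18, 1 was higher in lymphoma and 0 were lower at an edgeR adjusted p under 0.05. Over all 12836 genes tested, 16.6% were called, 9.21% higher and 7.4% lower. Whether 1 of 18 departs from that background was not tested. An unadjusted p under 0.05 was reached by 7 of the 18 genes, where 34.6% of all genes tested reached it. DESeq2 called 3 of 35, where it called 19.9% of all genes.

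None of the 13 protein-coding genes passed, and 5 had an unadjusted p under 0.05 in edgeR, against the 34.6% of all genes. Their log2 fold changes had a median of 0.3, against -0.05 over all genes tested, with 11 above 0 and 2 below. One of the 11, ND5, was at 0.00093 and turned to -0.051 with upper-quartile factors. Without lymphoma replicate 1, ND1 (-0.203), ATP6 (-0.033), ND4 (-0.069), ND5 (-0.15) and CYTB (-0.18) all lay below 0. COX1, COX2, COX3, ND3, ND4L and ATP8 stayed above 0 in that run. The left-out library held the highest CPM of 11 of the 13 genes, so the count of signs leans on it. COX2 had the highest, 0.87 (SE 0.33, edgeR adjusted p = 0.0809), and the lowest edgeR p of the class. DESeq2 gave it 0.86 (adjusted p = 0.0496), and over 23 alternatives the adjusted p spanned 0.0496 to 0.597. In CPM it ranged from 164 to 1675 in lymphoma and from 229 to 497 in non-lymphoma blood. Without lymphoma replicate 1 its log2 fold change was 0.46.

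COX1 and COX3 had log2 fold changes of 0.61 (SE 0.26) and 0.62 (SE 0.29), with edgeR adjusted p of 0.111 and 0.143. ND4L had 0.58 (SE 0.27, edgeR adjusted p = 0.139), ND3 0.57 (SE 0.39, edgeR adjusted p = 0.311) and ATP8 0.53 (SE 0.47, edgeR adjusted p = 0.442). Without lymphoma replicate 1 the log2 fold changes of COX3, ND3 and ATP8 were 0.36, 0.23 and 0.24. Without lymphoma replicate 6, ND4L came to 0.71 with an edgeR adjusted p of 0.0496 (range over alternatives 0.0496 to 0.503). ND6 had the lowest value, -0.82 (SE 0.39, edgeR adjusted p = 0.144), and -0.35 without non-lymphoma replicate 3. The remaining 6 protein-coding genes had edgeR adjusted p of at least 0.548 and log2 fold changes from -0.29 (ND2) to 0.3 (ATP6). The fit scaled libraries by TMM factors of 0.67 to 1.15 in lymphoma and 0.869 to 1.31 in non-lymphoma blood, so its folds differ from ratios of unscaled CPM.

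**Figure D4:**
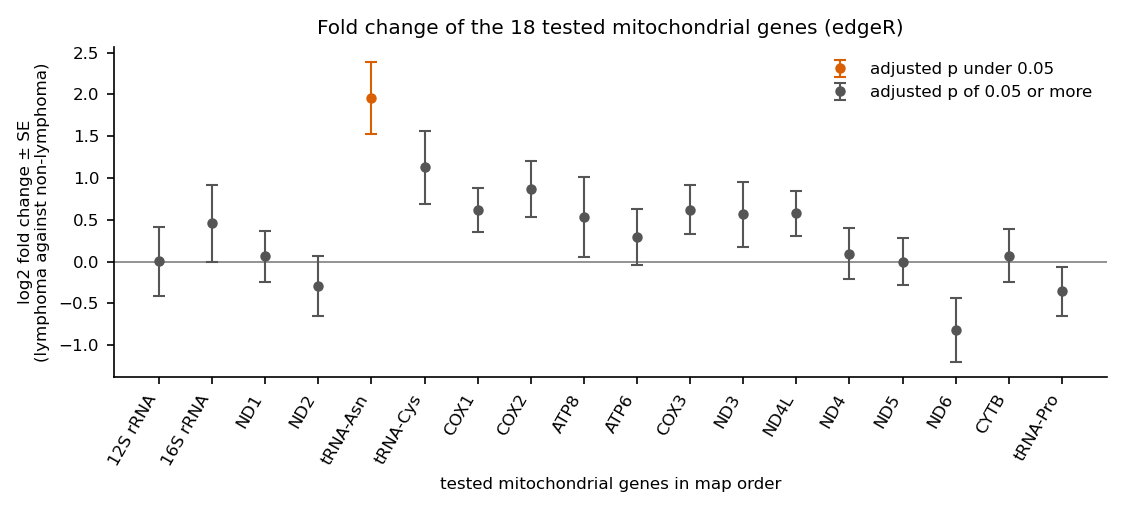
Log2 fold change (points) with SE (bars) of the 18 tested mitochondrial genes in map order, from edgeR on 7 lymphoma and 7 non-lymphoma libraries. Only tRNA-Asn, at 1.96, has an adjusted p under 0.05.

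The other ratios tested did not differ beyond the spread. Among protein-coding genes, CYTB and ND6 are neighbours on opposite strands, with a tRNA gene between them. The log2 ratio of ND6 to CYTB was -3.56 ± 0.73 in lymphoma against -3.06 ± 0.7 in non-lymphoma blood (SD, n = 7 each). The exact permutation test gave p = 0.21 and adjusted p = 0.316. ND1 and CYTB are the first and last protein-coding genes in forward order. The log2 ratio of ND1 to CYTB was -0.69 ± 0.48 against -0.71 ± 0.35 (SD over 7 libraries; p and adjusted p of 0.944, exact permutation test).

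The tRNA genes were thinly covered. They are 60 to 75 bases long, and a read pair that also reached a neighbouring gene was not counted for either. The 22 genes held 5586 counts over all 14 libraries. Of these counts 79.5% lay on 3 genes of the reverse strand, tRNA-Asn, tRNA-Cys and tRNA-Pro. As with ND6, reads of either strand were counted there alike. The share on these 3 genes was 76.2, 80.7 and 87.2% in lymphoma (lowest, median, highest) and 62.6, 81.5 and 89.5% in non-lymphoma blood. The 5 other tRNA genes of the reverse strand had sums of only 45 to 96 counts. A gap of 33 bases lies between tRNA-Asn and tRNA-Cys, and tRNA-Pro borders the control region, so read pairs reaching there met no other gene. On the other side of the control region, tRNA-Phe had 0 counts. What part these borders had in the counts was not tested.

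The gene for tRNA-Asn, which carries asparagine, at positions 5107 to 5178, was higher in lymphoma. It had 25, 65 and 180 counts in lymphoma and 13, 32 and 64 in non-lymphoma libraries, or 2.29, 6.6 and 14.1 CPM against 0.815, 1.95 and 4.03 CPM. All 7 lymphoma libraries lay above the non-lymphoma median, and 5 lay above every non-lymphoma library. Lymphoma replicates 6 and 7 lay within the non-lymphoma range. The log2 fold change was 1.96 (SE 0.43, edgeR adjusted p = 0.00897). The call was made in all 14 runs with 1 library left out (1.73 to 2.19, edgeR adjusted p up to 0.0218). Within the 9 libraries with 5-digit numbers the log2 fold change was 2.11 and not called (edgeR adjusted p = 0.143, range over alternatives 0.000146 to 0.143).

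The gene for tRNA-Cys, the next in order after a gap of 33 bases, had 1.73, 4.73 and 9.55 CPM in lymphoma and 1.07, 2.19 and 6.04 CPM in non-lymphoma blood. In mammals this gap holds the origin of light-strand replication. Of the lymphoma libraries 6 lay above the non-lymphoma median and 2 above every non-lymphoma library. The log2 fold change was 1.13 (SE 0.43, edgeR adjusted p = 0.0796). It was 1.13 in DESeq2 (adjusted p = 0.0452) and 1.34 without non-lymphoma replicate 3 (edgeR adjusted p = 0.0487), and over 23 alternatives the adjusted p spanned 0.0452 to 0.353. Lymphoma replicates 1 and 5 were highest for both tRNA-Asn and tRNA-Cys, and they had the highest protein-coding shares too.

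The gene for tRNA-Pro at positions 15392 to 15457, the last before the control region, held the most tRNA counts, 2828 in all. It had 3.55, 9.17 and 25.7 CPM in lymphoma and 9.69, 16.9 and 21.5 CPM in non-lymphoma blood, with 1 of 7 lymphoma libraries above the non-lymphoma median. Its log2 fold change was -0.36 (SE 0.29, edgeR adjusted p = 0.396; -0.62 without lymphoma replicate 1). The 3 well-covered reverse-strand tRNA genes thus differed in the sign of their fold changes. The differences between their fold changes were not tested.

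The gene for tRNA-Thr, the forward-strand neighbour of tRNA-Pro, had 121 counts in all and did not pass the filter, with 1, 3 and 12 counts in lymphoma libraries and 2, 7 and 50 in non-lymphoma libraries. The other 18 tRNA genes had sums of 0 to 102 counts, at most 66 counts in any library, and 5 of them lie on the reverse strand. Only 1 of the 18, at positions 2671 to 2744, had counts in all 14 libraries. The gene for tRNA-Phe, first in order, had 0 counts among 198626164, which allows a level of up to 0.0151 CPM over all libraries. That limit covers counting error only, and read pairs reaching into 12S rRNA were not counted for it.

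**Figure D5:**
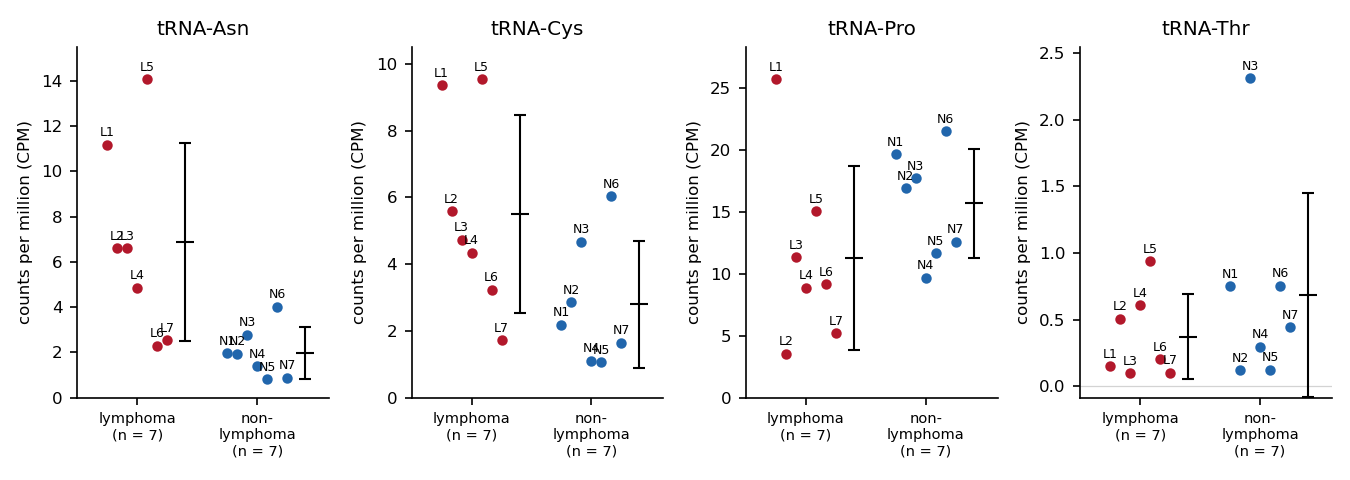
CPM of the 4 tRNA genes with the most counts, in each of 7 lymphoma (L) and 7 non-lymphoma (N) libraries, with the mean and SD of each group. For tRNA-Asn 5 lymphoma libraries lie above every non-lymphoma library; axes differ in scale, and the SD bar of tRNA-Thr in non-lymphoma reaches below 0.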

How the data were processed

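The deposited values are raw counts of read pairs per gene, which the authors obtained with featureCounts 2.0.1 on exons of the Ensembl release 103 annotation of CanFam3.1, per the file headers. HISAT2 2.2.1, Subread 2.0.1 and DESeq2 are named in the submitters' processing notes. The header's command sets no option for strand, for reads mapping to several places or for reads on several genes. Mitochondrial reads that also match nuclear copies may therefore be missing, and this was not tested.

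Groups were compared on all genes with edgeR 4.0.16 (R 4.3.3; filterByExpr, TMM factors, quasi-likelihood F test, group as the only term, Benjamini-Hochberg adjustment at 0.05). SEs were derived from the size of the log2 fold change and its F statistic. The biological coefficient of variation was 41.5%. Gene ratios, with 0.5 added to each count, were compared by two-sided exact permutation tests over the libraries (Python 3.11.15, numpy 2.4.6, scipy 1.17.1). Scripts were tested on simulated data. Alternatives were other scalings, no filter, DESeq2 1.42.0, a replicate block and subsets of libraries. Members, lists and tests were chosen with earlier results of these data known. By the rule for named genes, all rRNA and protein-coding genes and the tRNA genes that passed the filter or were among the 4 with the most counts are described singly. Lists of 46 nuclear genes of mitochondrial RNA handling and respiration and of 38 blood cell markers were set up, but 0 could be matched.

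Libraries sharing a number in the labels come from different groups and were not taken as pairs in the main fit. Their deviations from the group means correlated from -0.34 (replicate 3) to 0.35 (replicate 1).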

Additional observations from a re-analysis of the deposited data

Results flagged for a closer look

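Of 52 sets of 7 libraries, 4 contained 1 library well away from the other 6 (chance alone flags about 1 in 20, which is 2.6 sets). That rate is for values with a normal spread, which was not tested, and the sets share the same 14 libraries. The 2.6 is therefore only a rough guide. Distance was taken as the gap to the next library over the full range of the set. For ND2, non-lymphoma replicate 3 was set apart at the top, with 36.6 CPM against 17.2 CPM in the next (0.64 of the range). The same library was highest for ND6, with 20.9 CPM against 9.69 CPM (0.63), and for tRNA-Thr, with 2.31 CPM against 0.755 CPM (0.71). This library also had the highest total count and the highest CPM of the 7 non-lymphoma libraries in 20 of the 36 mitochondrial genes with counts. Lymphoma replicate 1 stood above the other lymphoma libraries for COX2, with 1680 CPM against 643 CPM (0.68). These 4 sets do not hold every value that stood apart, since tRNA genes under the filter on low counts had others. The tRNA gene at positions 14108 to 14178 had 3.05 CPM in non-lymphoma replicate 3, against 0.304 CPM in the next.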

How the results depend on the processing

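The number of mitochondrial genes called was 1 under RLE, upper-quartile and nuclear-gene scaling, without the 20 most abundant genes and without a filter, 3 with DESeq2, 0 within the 5-digit libraries, 1 with the replicate block and 1 to 2 with 1 library left out. With 3 libraries left out together (lymphoma replicates 1 and 2, non-lymphoma replicate 3), chosen after seeing the data, it was 1. Same-numbered libraries correlated from -0.34 to 0.35, and 1 of 7 lymphoma libraries, replicate 1, correlated best with its own number. The 16S to 12S ratio difference was 0.39 to 0.56 with 1 library left out, 0.404 within the 5-digit libraries and 0.6 with the 3 libraries left out (exact permutation adjusted p = 0.0325; range over alternatives 0.0105 to 0.139). The ND1 to CYTB difference, 0.02, had the opposite sign within the 5-digit libraries (-0.59) and without the 3 libraries (-0.074), and spanned -0.066 to 0.16 with 1 left out. The ND6 to CYTB difference, -0.505, kept its sign in all 18 alternatives. It spanned -0.8 (within the 5-digit libraries) to -0.33 (without the 3 libraries), and none passed (exact permutation adjusted p of 0.09 to 0.614). Differences in class shares moved by less than the SD between libraries, yet ranged with 1 left out from 0.0815 to 0.38 for rRNA, 0.0782 to 0.45 for protein-coding and -0.12 to 0.23 for tRNA genes.

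Of 414 single-gene values under alternatives, 39 changed sign, all in genes not called, and 10 of 18 genes never did. Signs turned for 12S rRNA (-0.055 upper-quartile, -0.078 no filter), ND1 (-0.0089 no filter, -0.039 block, -0.66 within the 5-digit libraries), ND2 (0.071 without the 3 libraries), ATP8 (-0.17), ATP6 (-0.22) and ND4 (-0.078) within the 5-digit libraries, ND5 (-0.051 upper-quartile, -0.075 no filter, -0.0028 DESeq2, -0.0101 block, -0.023 within the 5-digit libraries) and CYTB (-0.0099 no filter, -0.072 block). With 1 library left out the ranges were -0.14 to 0.26 for 12S rRNA, -0.203 to 0.21 for ND1, -0.45 to 0.13 for ND2, -0.033 to 0.44 for ATP6, -0.069 to 0.31 for ND4, -0.15 to 0.23 for ND5 and -0.18 to 0.27 for CYTB. The causes were not tested. The filter on low counts removed 19 of 22 tRNA genes; without it 36 mitochondrial genes were tested and 1 was called.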
